A study of Mus musculus with 12 samples.

Results

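The receptors described here are 10 proteins through which macrophages sense cytokines and colony-stimulating factors: Il7r, Il2rg, Il4ra, Il6ra, Il6st, Il10ra, Il10rb, Csf1r, Csf2rb and Csf3r. They were chosen by gene symbol, and all 10 were found among the 27013 genes of the expression table. The study removed YTHDF2, a protein that binds N6-methyladenosine (m6A) in mRNA and promotes decay of the bound transcripts, and asked how m6A and RNA abundance differ and which transcripts YTHDF2 binds. Its 12 libraries fall into 6 groups of 2: m6A immunoprecipitates of Ythdf2 cKO cells, their inputs, m6A immunoprecipitates of WT cells, their inputs, YTHDF2 immunoprecipitates of WT cells, and inputs of those. All cells were C57BL/6 bone marrow-derived macrophages of conditional Ythdf2 knockout (cKO) or WT mice, cultured for 7 days with M-CSF at 20 ng/ml and then for 24 h with LPS at 100 ng/ml and IFN-γ at 20 ng/ml to reach the M1 type, the proinflammatory state. The M-CSF of the culture is itself the ligand of Csf1r, in every group. The Cre driver, the age of the mice and whether the 2 libraries of a group came from separate mice are not given in the sources used here, so p-values may measure technical spread only.

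Many cytokine receptors are assembled from chains that are shared. In much of the type I family, though not in all of it, a ligand-specific chain joins a common signalling chain. Such chains are the common γ chain Il2rg, the common β chain Csf2rb and gp130, the product of Il6st. JAK kinases held by the chains phosphorylate STAT factors. The IL-10 receptor belongs to the type II family and is built from Il10ra and Il10rb. The M-CSF receptor Csf1r is a receptor tyrosine kinase on which macrophages depend for survival and differentiation.

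The processed files hold no value of a single library. RNA abundance comes as the authors' own comparison of the input libraries of both genotypes, and the direction of its fold change is not stated. Ythdf2 itself stood at 1.10 ± 0.16 (SE, log2 scale) in the authors' deposited table, with a mean normalized count of 1762 and an adjusted p of 2.1e-09 (Wald test). A positive value therefore means the same direction as Ythdf2 RNA, and a negative value the other direction; which of these is higher in cKO cells cannot be read from the table. The depth of each library is unknown, and the mean normalized count over both genotypes stands in for the depth behind a value. It is not divided by transcript length, so it does not rank the receptors against each other. The receptors' mean normalized counts ran from 1948 (Il6st) to 29752 (Csf1r) in the authors' deposited table, between percentiles 75.6 and 99.1 of the 10778 genes that have an adjusted p ("tested genes").

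In the input comparison, 1 of the 10 receptors passed an adjusted p of 0.05. Il7r, the IL-7 receptor α chain, which also forms part of the TSLP receptor, was positive, as were 1.76% of tested genes at this threshold. None of the 10 was called negative in the authors' Wald test, as 0.557% of tested genes were. At an unadjusted p under 0.05 there were 2 positive receptors, Il7r and Csf2rb, and 0 negative ones, at a level that 6.28% of tested genes passed on the positive side and 3.71% on the negative side. Beside these shares, 2 of 10 is no result about the receptors as a group. The median log2 fold change of the 10 receptors was 0.08 in the authors' deposited table, and that of all tested genes was -0.01.

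**Figure D1:**
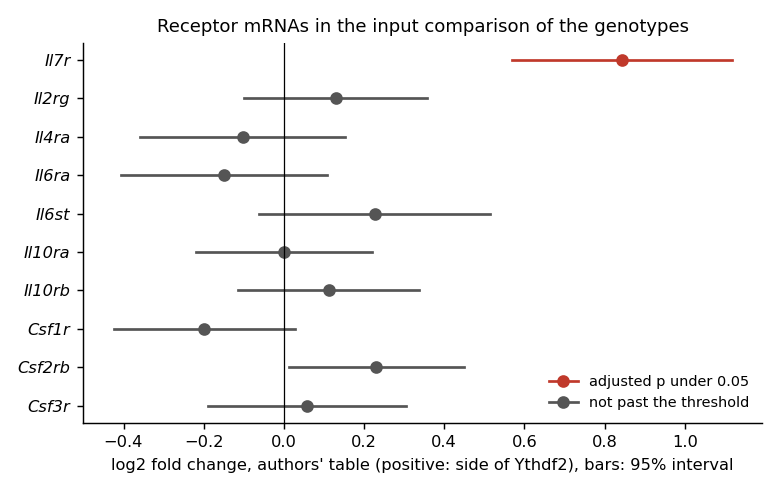
Log2 fold change of each receptor between the genotypes in the authors' deposited table (x axis, positive in the direction of Ythdf2), with 1 row per receptor and bars for the 95% interval from the deposited standard error. Il7r sits at 0.84, and the other 9 receptors lie between -0.20 and 0.23.

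The common γ chain family is represented by Il7r, Il2rg and Il4ra. Il7r was called at 0.84 ± 0.14 (SE, log2 scale), or 1.79-fold, in the authors' deposited table, with a 95% interval of 1.48 to 2.17-fold and an adjusted p of 1.3e-06 (Wald test). With 2 libraries for each genotype, this fold and the mean normalized count of 10181 correspond to means of 13074 in the genotype with more Ythdf2 RNA and 7289 in the other. By p-value Il7r stood at place 13 of the tested genes, and by positive log2 fold change at place 91, since many less abundant genes had larger and less precise values. Of the 41 called genes with a mean normalized count at least that of Il7r, 2 had a log2 fold change at or above its value, Il7r included. With the sign left aside there were 3. Among called positive genes of any count, 45 had a log2 fold change at or above that of Il7r. In a test against a change of at least 1.5-fold, computed from the deposited values, Il7r did not pass (unadjusted p 0.065, adjusted p 1.0, Wald test; 0.0278% of tested genes passed after adjustment).

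**Figure D2:**
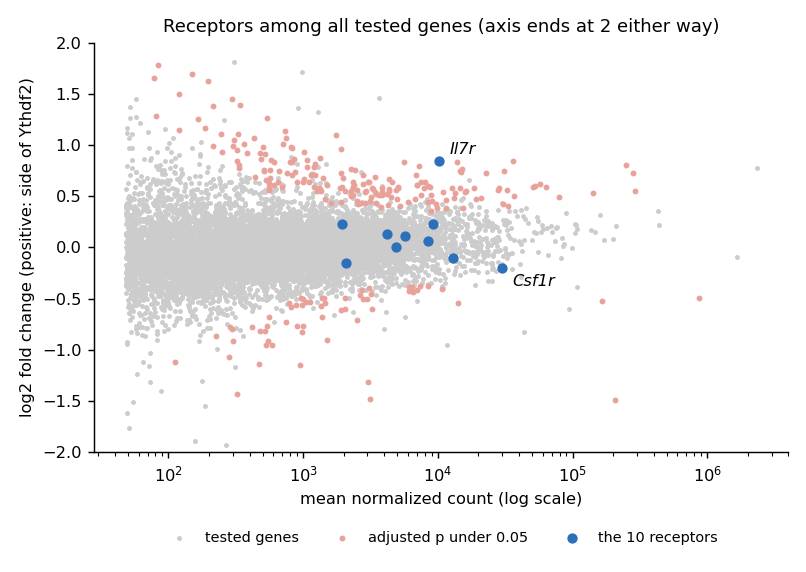
Mean normalized count (x axis, log scale) against log2 fold change (y axis, positive in the direction of Ythdf2) of each tested gene in the authors' deposited table, with called genes in red and the 10 receptors in blue; 17 genes beyond 2 either way are not drawn. Il7r lies at the upper edge of the genes of its abundance, and the other 9 receptors lie inside the band of genes that were not called.

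Il7r is best known from lymphocytes, so lymphocyte markers were read beside it. Of 11 T and NK cell markers, 8 were listed in the authors' deposited table, with mean normalized counts of 0.257 to 14.5, and none was tested. Among these, the T cell receptor genes Cd3d and Cd3e had 0.257 and 0.540 in the authors' deposited table, against 10181 for Il7r. Among 8 B cell markers, 2 had counts high enough to be tested, Cd22 at 528.6 and Cd79b at 49.0, and neither was called. Their log2 fold changes were -0.02 ± 0.21 (Cd22) and -0.94 ± 0.48 (Cd79b) in the authors' deposited table. In these bulk samples, fewer cells of a type and less RNA per cell cannot be told apart.

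The label of the cells was checked against macrophage markers, of which 10 of 10 were tested, with mean normalized counts of 2991 and more. Lysozyme (Lyz2) and the integrin Itgam were called negative at -1.49 ± 0.33 and -0.55 ± 0.11 in the authors' deposited table, and the lysosomal protein Cd68 was called positive at 0.40 ± 0.11. Of all tested genes, 1.76% were called positive and 0.557% negative. The call of Cd68 was lost when genes of low count were kept (adjusted p 0.055, Wald test) and with values centred on the most abundant 25% of genes (adjusted p 0.057, Wald test). Adgre1, a macrophage surface receptor, was at -0.38 ± 0.12 in the authors' deposited table, did not pass (adjusted p 0.056, Wald test), and became called negative with centring (adjusted p 0.025, Wald test). Of 6 dendritic cell markers, 5 were listed, none above 30.1, and none was tested. Of 7 fibroblast markers, 4 were tested, and the collagen Col1a1 was called positive at 0.56 ± 0.17 in the authors' deposited table. That call was lost when genes of low count were kept (adjusted p 0.12, Wald test) and with centring (adjusted p 0.088, Wald test). The collagens Col1a2 and Col3a1 were at 0.46 ± 0.17 and -0.20 ± 0.27 in the authors' deposited table and were not called. The part of these markers in the receptors' values was not tested.

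Il2rg, the common γ chain itself, was at 0.13 ± 0.12 (SE) in the authors' deposited table, with a 95% interval of 0.93 to 1.28-fold. Il4ra, which binds IL-4 and serves both the IL-4 and the IL-13 receptor, was at -0.10 ± 0.13 in the authors' deposited table, with an interval of 0.78 to 1.11-fold. Neither passed the test, and the intervals leave room for changes up to those bounds.

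In WT cells, Il7r mRNA carried m6A and YTHDF2 peaks on both sides of the end of its coding sequence. Its m6A peaks lay at chr15:9506538-9507737, wholly in the 3′ UTR, and chr15:9507813-9508137, of which 282 bases were coding and 43 were 3′ UTR (mm10, minus strand). The YTHDF2 peak at chr15:9507345-9508432 covered the m6A peak at the end of the coding sequence in full and had its summit in coding sequence, 219 bases before the end of the coding sequence. The other YTHDF2 peak, at chr15:9506447-9507136, had its summit in the 3′ UTR, 1084 bases past that point. The authors' fold enrichments at the summits were 1.88 and 1.71, at percentiles 4.07 and 1.29 of the 17843 peaks of the YTHDF2 list. These percentiles are over peaks of genes of all counts. Il7r had the largest change in RNA among the 10 receptors, while Il2rg, which was not called, had a YTHDF2 peak of lower fold enrichment (1.66). A link between fold enrichment and change in RNA was not tested.

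Il4ra had 3 m6A peaks, in coding sequence at chr7:125575598-125576197 and chr7:125576223-125576722, and in the 3′ UTR at chr7:125577398-125577947. Each of them overlapped a YTHDF2 peak. Its 4 YTHDF2 peaks had fold enrichments of 2.19 to 2.39, and the 2 farthest into the 3′ UTR, with summits 1318 and 1878 bases past the end of the coding sequence, met no m6A peak. Il2rg had no m6A peak in the list and 1 YTHDF2 peak, at chrX:101264563-101265151, with its summit in the 3′ UTR and a fold enrichment of 1.66, the lowest of all peaks of the receptors.

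Il6ra and Il6st form the IL-6 receptor: Il6ra binds IL-6, and gp130, encoded by Il6st, passes on the signal of IL-6 and of related cytokines. Il6ra was at -0.15 ± 0.13 (SE) and Il6st at 0.23 ± 0.15 in the authors' deposited table, with 95% intervals of 0.75 to 1.08-fold and 0.96 to 1.43-fold. Neither passed the test, and 1.43-fold was the widest bound among the 9 receptors that were not called.

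The IL-6 receptor chains had the strongest YTHDF2 peaks of the receptors. Il6ra had 3 m6A peaks, at chr3:89869459-89869783, chr3:89869809-89870808 and chr3:89871034-89871333, the last of which spans the end of the coding sequence. Its YTHDF2 peak at chr3:89869035-89869912, with the summit in the 3′ UTR 1483 bases past the coding sequence, had a fold enrichment of 3.83 (percentile 76.1 of the list) and covered the first of these m6A peaks in full. Its other YTHDF2 peaks had fold enrichments of 2.92, 3.13 and 2.47, and the last of these, at chr3:89890397-89890601, lay far upstream at a coding exon with no m6A peak. Il6st had adjacent m6A peaks at chr13:112504138-112505087 and chr13:112505113-112505437. Both lay inside a single YTHDF2 peak of 4503 bases, chr13:112503591-112508093, with a fold enrichment of 3.39, of which 1233 bases ran past the annotated end of the gene. A further YTHDF2 peak of 3.21-fold lay at an upstream coding exon, chr13:112494451-112494650.

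**Figure D3:**
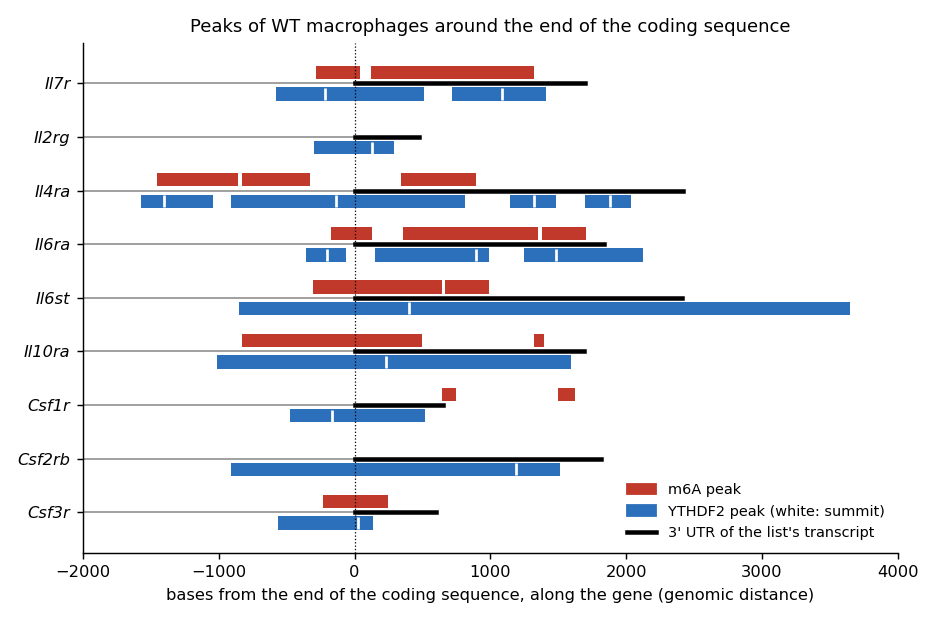
m6A peaks (red) and YTHDF2 peaks (blue, summit in white) of WT macrophages in 9 receptors, by distance in bases from the end of the coding sequence along the gene (x axis); the black line is the 3′ UTR of the transcript named in the YTHDF2 list. In 6 receptors an m6A peak lies over or near a YTHDF2 peak within 2000 bases of that point, and in Csf1r the m6A peaks start at the end of the 3′ UTR or past it; 7 YTHDF2 peaks and 1 m6A peak farther upstream are not drawn.

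Csf3r, the G-CSF receptor, best known from granulocytes, was at 0.06 ± 0.13 (SE) in the authors' deposited table, with a 95% interval of 0.88 to 1.23-fold. Its mean normalized count was 8496, while the granulocyte precursor and neutrophil genes Ly6g, Mpo and Elane had 0.772, 1.08 and 0.479 in the authors' deposited table. Other neutrophil markers were present: the collagenase Mmp8 had a mean normalized count of 987.2, S100a9 of 325.5, S100a8 of 304.1, Ngp of 44.6 and Camp of 23.7 in the authors' deposited table. Of the 11 markers, the first 3 of these were tested. Mmp8 was called negative at -0.83 ± 0.19 in the authors' deposited table, as were 0.557% of tested genes. The part of such cells in the value of Csf3r was not tested.

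Csf3r had an m6A peak at the end of its coding sequence and another far upstream, at an annotated transcription start inside the gene. The one at chr4:126043607-126044081 spanned the end of the coding sequence and lay for 77.7% of its length in a YTHDF2 peak, chr4:126043276-126043975, whose summit was 24 bases past that end (fold enrichment 2.34). The other, of 50 bases, lay at chr4:126024650-126024699, from 9 bases before to 41 bases after a transcription start that RefSeq places at base 126024659. It began 1209 bases inside the gene as RefSeq draws it, and no YTHDF2 peak met it. The interval of a RefSeq lncRNA, Gm32908 (126011050 to 126024654), whose strand is not given here, reaches into it. Its central 30 bases, chr4:126024660-126024689 on the plus strand (RefSeq promoter window, GRCm38.p6), are shown because this is the only m6A peak of the receptors at a transcript start, and 17 of them are C.
Csf3r start: gtcccccccaccccccgcctgtcattaacg
The m6A consensus (A, G or T, then A or G, then AC, then A, C or T, which makes 18 forms) was searched over all 50 bases of the peak. It had 0 matches on the transcript strand and 2 on the other strand, and therefore no letters are capitalised. In the same 50-base window of 32851 RefSeq promoters, 54.1% had a match on the transcript strand and 79.8% on either strand. A further YTHDF2 peak of Csf3r, of 2.56-fold, lay at chr4:126037377-126037581, with its summit in an intron.

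Csf2rb is the common β chain through which GM-CSF, IL-3 and IL-5 signal, and mice have a close paralog, Csf2rb2, which serves IL-3. Csf2rb was at 0.23 ± 0.11 (SE) in the authors' deposited table, with a 95% interval of 1.01 to 1.37-fold, an unadjusted p of 0.039 and an adjusted p of 0.45 (Wald test). Csf2rb2 was at 0.34 ± 0.11 in the authors' deposited table, with an interval of 1.09 to 1.47-fold and an adjusted p of 0.086. Both lay on the positive side, and neither passed the threshold.

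Both genes share an identical stretch, which bears on how reads were split between them. RefSeq annotates a microRNA hairpin of 62 bases inside a coding exon of each: Mir7676-1 at chr15:78284788-78284849 in Csf2rb2 (minus strand) and Mir7676-2 at chr15:78348599-78348660 in Csf2rb (plus strand). They are shown to mark a stretch that has no base by which the genes can be told apart.
Mir7676-1: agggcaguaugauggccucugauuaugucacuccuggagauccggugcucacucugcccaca
Mir7676-2: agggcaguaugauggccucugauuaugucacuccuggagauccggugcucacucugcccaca
Each copy lay inside a YTHDF2 peak of its gene. In Csf2rb this was chr15:78348279-78350698, its only peak, with 907 coding bases and 1513 bases of 3′ UTR, a summit 1188 bases past the coding sequence and a fold enrichment of 2.20. In Csf2rb2 it was chr15:78284138-78285107, with a fold enrichment of 2.00. Neither gene had an m6A peak in the list. The sources used here do not say how reads that match both genes were treated, so the values of Csf2rb and Csf2rb2 are uncertain in how they split.

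Of the IL-10 receptor chains neither passed the test. Il10ra, the ligand-binding chain, was at -0.00 ± 0.11 (SE) in the authors' deposited table, with a 95% interval of 0.86 to 1.16-fold. Il10rb, which is shared with the IL-22 and interferon λ receptors, was at 0.11 ± 0.12 in the authors' deposited table, with an interval of 0.92 to 1.26-fold. Their marks differed in the lists: Il10ra had 2 m6A peaks, at chr9:45254137-45254211 and chr9:45255037-45256361, both wholly inside 1 YTHDF2 peak, chr9:45253935-45256544 (fold enrichment 2.92, summit 228 bases past the coding sequence). Il10rb had no m6A peak and 1 YTHDF2 peak, chr16:91424770-91425393 (fold enrichment 2.05), with its summit in the 3′ UTR of the transcript the list names.

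Csf1r, the M-CSF receptor, had the highest mean normalized count of the receptors, 29752 in the authors' deposited table. It was at -0.20 ± 0.12 (SE, log2 scale) in the authors' deposited table, with a 95% interval of 0.75 to 1.02-fold, an unadjusted p of 0.085 and an adjusted p of 0.63 (Wald test). That was the most negative of the receptors, and it did not pass the test. A pseudogene, Csf1r-ps, was listed with a mean normalized count of 39.4, which is 0.133% of that of Csf1r.

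Neither of the m6A peaks listed for Csf1r lay wholly inside the gene as RefSeq draws it. The first, chr18:61131126-61131225, had 86 of its 100 bases past the annotated gene end at 61131139. The second, chr18:61131976-61132100, began 837 bases past that end. All of its 125 bases lay inside the annotated gene Hmgxb3 (61131277 to 61177050), which is on the opposite strand. They also belonged to an m6A peak that the same list gives to Hmgxb3, at 61131927 to 61132101. The YTHDF2 peak over them was assigned to Hmgxb3 as well. This second peak of Csf1r was the 1 m6A peak of the receptors that coincided with a peak of another gene. The sources used here do not say whether strand was used in calling these peaks, so the transcript behind the second peak is uncertain.

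Csf1r had 5 YTHDF2 peaks, the most of the receptors, and none of them met an m6A peak of Csf1r. The strongest, chr18:61130005-61130999, had a fold enrichment of 2.99 and a summit 169 bases before the end of the coding sequence in genomic distance. The other 4 lay upstream, with fold enrichments of 1.96 to 2.35. Their summits fell in introns in 3 cases and in a coding exon in 1, and each of these peaks overlapped a coding exon in part.

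Over the 10 receptors, 7 carried m6A peaks and all 10 YTHDF2 peaks, while 45.4% and 64.5% of all tested genes had these. Both kinds of peak were found in 7 receptors, against 35.8% of tested genes. These 7 include Csf1r, whose listed m6A peaks lay mostly or wholly past its annotated end. The receptors are abundant mRNAs, and among the 2543 tested genes within their range of mean normalized counts, 68.1% carried m6A peaks and 88.6% YTHDF2 peaks. The receptors' share of m6A genes is thus near that of genes of like count. Il2rg, Il10rb and Csf2rb were the 3 with a YTHDF2 peak and no m6A peak. The m6A list holds no level and no p, so a gene without a peak is one that did not pass the authors' caller.

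The receptors had 16 m6A peaks, of which 14 (87.5%) overlapped a YTHDF2 peak by at least 1 base, and 13 overlapped one of the same gene. Over all m6A peaks that could be placed on a chromosome, 49.0% overlapped a YTHDF2 peak. All 10 receptors had a YTHDF2 peak, as did 88.6% of tested genes in their count range and 64.5% of all tested genes. An overlap share for genes of like count was not computed. The 87.5% beside 49.0% is therefore no result about the receptors. The receptors' m6A peaks without an overlap were the one at the upstream start site of Csf3r and the first one of Csf1r. Of the 23 YTHDF2 peaks of the receptors, 10 overlapped an m6A peak of the same gene and 13 did not. Each of the 7 receptors is 1 gene with neighbouring peaks, so its peaks do not count as independent. The centre of an m6A peak lay within 1000 bases of the end of the coding sequence in 11 of 16 (68.8%), against 44.4% of 4516 m6A peaks in all genes where that end could be placed. For YTHDF2 summits this share was 40.9% of 22 in the receptors and 42.3% of 12583 in all such genes. That end could be placed only in genes whose YTHDF2 peaks were listed with the adjoining coding and 3′ UTR blocks. These shares thus come from genes chosen by their YTHDF2 peaks on both sides of that end. No such share was computed for genes of like count. The shares are therefore no result on where peaks lie in genes at large, nor about the receptors. Distances are genomic and include introns.

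Of the receptors' 23 YTHDF2 summits, 11 (47.8%) were in a 3′ UTR, 8 (34.8%) in coding sequence and 4 (17.4%) in an intron, while the whole list had 39.2%, 35.7% and 23.1%. Their fold enrichments ran from 1.66 to 3.83 with a median of 2.34, against a median of 3.01 and a range of 1.39 to 15.5 in the whole list. The value of 4 of the 23 exceeded the median of the list. That median covers peaks of genes of all counts, and none was computed for genes of like count. The lower values are therefore no result about the receptors. The fold enrichments are the authors' own and are used only within this list. Its peak names contain the word m6a although the labels tie it to the YTHDF2 immunoprecipitates, and which libraries the peaks came from was not tested.

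**Figure D4:**
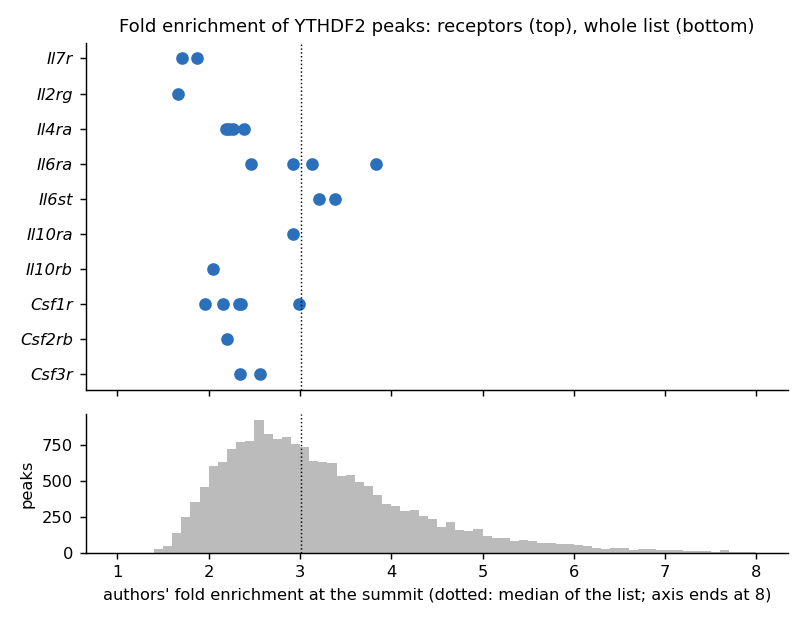
The authors' fold enrichment at the summit (x axis) of each YTHDF2 peak of the receptors (top, 1 point per peak) and of the whole list as a histogram (bottom, number of peaks), with the list's median of 3.01 dotted. The peaks of Il7r and Il2rg lie lowest, between 1.66 and 1.88, and 3 of the 4 peaks above the median of the list are within 3.13 and 3.39 while the highest, of Il6ra, is at 3.83.

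The ligands of these receptors were read from a list of 20 genes, of which 15 were in the expression table and 7 were tested. Csf1, which encodes M-CSF, the ligand of Csf1r, was called positive at 0.61 ± 0.18 (SE) in the authors' deposited table, or 1.53-fold, with a 95% interval of 1.19 to 1.95-fold and an adjusted p of 0.034 (Wald test). At this threshold 1.76% of all tested genes were called positive. The call of Csf1 was lost when genes of low count were kept (adjusted p 0.084, Wald test) and with centring (adjusted p 0.063, Wald test). Csf1 carried 2 m6A and 2 YTHDF2 peaks. The other tested ligands did not pass: Il6 was at 1.07 ± 0.47, Il10 at 0.42 ± 0.23 and Il27 at 0.30 ± 0.21 in the authors' deposited table. The 7 tested ligands had values above 0, as 48.7% of all tested genes had, with a median of 0.30; 6 of them did not pass, and no shift of the group was tested. Il6 had a mean normalized count of 107.7, and its interval of 1.11 to 3.97-fold is correspondingly wide.

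Among 35 other cytokine receptors, 33 were in the table and 16 were tested. None was called in the authors' Wald test; at an unadjusted p under 0.05, 3 of the 16 were positive and 0 negative, beside 6.28% and 3.71% of all tested genes. These were Csf2rb2 (above), Il11ra1, the IL-11 receptor chain, at 0.40 ± 0.17, and Il15ra, which presents IL-15, at 0.33 ± 0.14 in the authors' deposited table. The split of reads between Csf2rb2 and Csf2rb is uncertain, so their values may not be independent. Beside the shares over all tested genes, 3 of 16 is no result about these receptors as a group. The median of the 16 was 0.08, the same to rounding as that of the 10 receptors.

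Of 28 genes that act next to the receptors (JAK kinases, STAT factors, SOCS inhibitors, phosphatases, adaptors and lipid-signalling enzymes), 26 were tested and none was called in the authors' Wald test, with 2 positive and 2 negative at an unadjusted p under 0.05, where all tested genes had 6.28% and 3.71%. Stat2, a STAT factor of the type I interferon response, was at 0.26 ± 0.12 in the authors' deposited table. Ptpn6, the phosphatase SHP-1, which dampens receptor signalling, was at -0.25 ± 0.11 in the authors' deposited table (Wald test, adjusted p 0.31). Their median was 0.01, and 17 of the 28 carried m6A peaks and 24 YTHDF2 peaks. Of all tested genes, 45.4% had m6A peaks and 64.5% YTHDF2 peaks. Within the receptors' range of mean normalized counts these shares were 68.1% and 88.6%. No share was computed for genes with counts like those of the signalling genes. The peak counts are therefore no result about the signalling genes. Of 5 genes that control shedding of receptors from the cell surface, 4 were tested and none was called in the authors' Wald test, nor at an unadjusted p under 0.05. The shedding protease Adam17 was at -0.21 ± 0.12 in the authors' deposited table, its cofactor Rhbdf2 at -0.11 ± 0.12 and its inhibitor Timp3 at 0.73 ± 0.44.

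**Figure D5:**
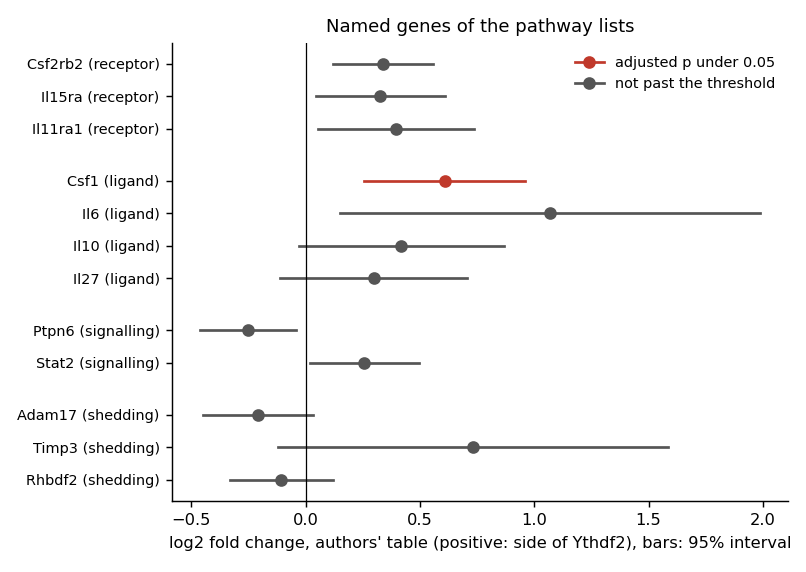
Log2 fold change in the authors' deposited table (x axis, positive in the direction of Ythdf2) of the genes named from the lists of other receptors, ligands, receptor-proximal signalling and shedding, with bars for the 95% interval. Csf1, at 0.61, is the 1 called gene; Il6 and Timp3 have the widest intervals.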

How the data were processed

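Per the labels' protocols, M1-type macrophages of both genotypes gave m6A and input libraries, and WT cells gave YTHDF2 immunoprecipitates and inputs. The submitters' processing notes name HISAT2, HOMER, ChIPseeker and mm10 without saying what each was used for. Altogether 3 deposited files were used, and 0 columns of them hold values per library. In the expression table, per the file headers, the authors give a mean normalized count (a signal averaged over libraries), a log2 fold change with its standard error, a Wald statistic (a score, deposited by the authors), a p-value and an adjusted p-value. Benjamini-Hochberg adjustment recomputed over the 10778 genes with a value returned the deposited adjusted p-values, and none of these genes had a mean normalized count under 48.04. The YTHDF2 list gives a fold enrichment ratio and −log10 q per peak as deposited by the authors. Its score is as deposited 10 times the −log10 q, cut to an integer. The m6A list, named for exomePeak2 in the labels, gives positions only.

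The design foresaw counts. With the authors' comparison only, their calls (adjusted p under 0.05) across all genes are described. Intervals at 95% are the fold change ± its normal quantile times the standard error. The YTHDF2 list had 45541 rows, of which 3234 repeats were dropped. Peak starts were turned to 1-based. An m6A peak was placed when within 1000 bases of the RefSeq gene (GRCm38.p6) of its symbol, as 9314 of 10290 were. The end of the coding sequence is where coding and 3′ UTR blocks of the YTHDF2 list adjoin, known for 9 receptors. Symbols were joined directly or by RefSeq synonym. Receptors and lists were chosen with earlier results of these data known. All 10 receptors, each called gene of the pathway lists and the 3 further genes with the smallest unadjusted p per list are named, except 1 gene that is not reported here. Scripts used Python 3.11.15, pandas 2.3.3 and scipy 1.17.1, and were tested on simulated data.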

Additional observations from a re-analysis of the deposited data

How the results depend on the processing

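No paired analysis was possible because the deposited tables hold no value per library, and leaving out a replicate or another count test was not run for the same reason. In the input comparison, the count of receptors called positive stayed 1 with no filter on low counts and with centring on the most abundant 25% of genes (a shift of 0.04 on the log2 scale), and became 0 in the test against at least 1.5-fold, where 2 positive and 1 negative gene of all genes were called in place of 190 and 60. The ligands called positive became 0 under each of these 3 settings. With no filter, 37 genes of all were called negative. The other counts of calls, of 0 in the lists, and the counts over all genes under the remaining settings stayed within 1.5 times. Among the peaks, a fold enrichment of at least 2 left 8 receptors and 19 peaks in the YTHDF2 list, without Il7r and Il2rg, and a −log10 q of at least 5 left 10 and 22. Assigning YTHDF2 peaks by gene interval gave 10 and 23. The m6A peaks that overlap a YTHDF2 peak were 13 at 50% of the shorter peak and 12 at a fold enrichment of at least 2. Leaving out the Csf1r peak that begins past the gene end, an alternative chosen after seeing the data, left 7 receptors and 15 m6A peaks. Csf1r still counts among these 7 through its first peak, with 86 of 100 bases past the gene end. Depth of each library is unknown, and genes of low count, such as Il6 and Timp3, had wide intervals.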

Other observations

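Outside the 10 receptors, some cytokine receptors had peaks in either list or in both in WT macrophages. These peak counts are not divided by transcript length. The TNF receptor Tnfrsf1b had 2 m6A and 6 YTHDF2 peaks, with a mean normalized count of 103473 and a value of 0.23 ± 0.12 (SE, log2 scale) in the authors' deposited table. The IL-3 receptor α chain Il3ra and Il11ra1 had 5 YTHDF2 peaks each and no m6A peak, and Il15ra had 2 m6A peaks and no YTHDF2 peak. Among the kinases next to the receptors, Jak1 had 2 m6A and 7 YTHDF2 peaks at 0.21 ± 0.11 in the authors' deposited table, and Tyk2 had 7 YTHDF2 peaks and no m6A peak. The nitric oxide synthase Nos2, a marker of the M1 state, had 11 YTHDF2 peaks and no m6A peak. The choice of these genes followed a look at their values, and none of them passed the test.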
